A study of Mus musculus with 2 samples.

Results

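The genes described here are the ribosomal protein pseudogenes of the mouse, measured in adult heart. Members were taken by name: every gene of both deposited gene tables whose symbol in GENCODE release M21 starts with Rpl or Rps and contains "-ps". This gave 257 members of the 43346 Ensembl genes in the tables. The rule uses no measured value, but it was set with earlier results of these data known. A further 43 symbols of that kind in release M21 have no row in the tables used and were not analysed here. The parent of a member is the gene named by the letters before "-ps", so Rpl31 is the parent of Rpl31-ps8. The members carry 58 parent names, and all but Rpl48-ps1 have their parent in the tables. Poly(A) RNA came from the heart of 1 female C57BL/6J mouse, adult, 10 weeks old, with no genetic change or treatment named in the labels. It was sequenced as 2 libraries, which the labels number as technical replicates 1 and 2 of 1 biological replicate. With 1 animal and 1 group there was nothing to test between conditions, and every spread given here is technical.

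Ribosomal proteins build the large and small subunits of the ribosome, and their mRNAs are short, abundant and present in nearly every cell. Such mRNAs are copied back into the genome by the reverse transcriptase of LINE elements, which leaves intronless copies called processed pseudogenes. A recent copy still reads almost like the coding gene, so a short sequencing read from the mRNA can match both places, and a quantifier that estimates counts divides such reads between them. An expected count is the estimated number of reads given to a gene after that division. TPM corrects it for the length that a fragment can start on and scales each library to the same sum.

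Stretches of coding sequence from 5 members show how much, or how little, a read has to tell them from the parent. Each was taken where copy and parent differ at the most bases, so other coding stretches without gaps differ as much or less. Each is 90 bases of the GENCODE M21 transcript (GRCm38, which is mm10), written 5′ to 3′ on the strand of the pseudogene, with the parent's transcript beside it where they differ, and capitals mark the bases that differ. The stretch of Rpl31-ps8, the member of highest mean TPM, starts at the start codon and lies at chr15:90764567-90764656 on the minus strand. It has 0 differences from Rpl31, as has the whole of the pseudogene, so 1 line stands for both. The stretch of Rpl38-ps2 lies at chr6:140747083-140747172 on the minus strand, also from the start codon, again with 0 differences from its parent. Rpl19-ps11 is shown at chr8:19493081-19493170 on the plus strand around its single coding difference from Rpl19, and Rps10-ps2 at chr16:20822164-20822253 on the minus strand around its 5 coding differences from Rps10. Rps19-ps3 is shown at chr4:147821979-147822068 on the minus strand, where 6 bases differ from Rps19. It was chosen after its values were seen, as an example of a copy with many sites of its own.
Rpl31-ps8: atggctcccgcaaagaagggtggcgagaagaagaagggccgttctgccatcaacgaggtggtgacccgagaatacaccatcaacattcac
Rpl38-ps2: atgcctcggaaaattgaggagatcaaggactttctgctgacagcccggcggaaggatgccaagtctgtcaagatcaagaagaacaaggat
Rpl19-ps11: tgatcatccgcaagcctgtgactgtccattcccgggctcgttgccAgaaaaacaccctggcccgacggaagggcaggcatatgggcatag
Rpl19: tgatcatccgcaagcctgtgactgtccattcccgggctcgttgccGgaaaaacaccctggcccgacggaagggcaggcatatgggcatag
Rps10-ps2: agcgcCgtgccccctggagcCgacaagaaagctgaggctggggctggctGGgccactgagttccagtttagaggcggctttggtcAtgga
Rps10: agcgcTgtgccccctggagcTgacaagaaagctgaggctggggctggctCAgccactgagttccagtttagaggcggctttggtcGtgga
Rps19-ps3: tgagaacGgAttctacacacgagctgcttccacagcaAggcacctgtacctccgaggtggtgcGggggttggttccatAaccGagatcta
Rps19: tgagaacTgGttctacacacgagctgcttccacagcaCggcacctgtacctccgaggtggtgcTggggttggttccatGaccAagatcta

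The libraries stood apart from each other, which touches every comparison between them. Replicate 1 held 22775991 counts and replicate 2 held 19685821, but mitochondrial genes and their nuclear copies took 92.8% of the TPM in replicate 1 and 60.9% in replicate 2. A gene's deposited TPM is lower by construction where those genes take more, so levels are given as deposited TPM within a library, and ratios between libraries use TPM rescaled without mitochondrial genes and their copies. The 6 heart muscle markers were present in both libraries, from 25.8 to 546 TPM in replicate 1 and from 109 to 10108 TPM in replicate 2, and the lung genes Sftpc, Sftpb and Scgb1a1 had 0 counts in both. Marker levels also moved between the libraries on the rescaled TPM scale. The summed level of the 6 heart muscle markers was 14208 in replicate 1 and 73790 in replicate 2, with 5 of the 6 at least 2-fold higher in replicate 2. All 3 endothelial markers (122 and 473), all 3 macrophage markers (6.51 and 158) and both red cell markers (693 and 7109) were at least 2-fold higher there. Of the 3 fibroblast markers (2025 and 825), 1 was at least 2-fold higher and 1, Dcn, at least 2-fold lower. The part of these shifts in the members' values was not tested. Library, mitochondrial share and the later date that the labels give for replicate 2 change together and cannot be told apart.

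Most ribosomal protein pseudogenes were given no expected count. In replicate 1, 27 members (10.5%) had at least 1 expected count, and in replicate 2, 60 members (23.3%) did. Both libraries gave at least 1 count to 20 members, and 67 had it in at least 1 library. A further 187 members were at 0 expected counts in both, and the remaining 3 were above 0 but under 1. An expected count of 0 allows up to 3 counts by counting error alone, and more where reads that a copy shares were placed on another gene, since posterior means of members at 0 reached 6.31 counts in replicate 1 and 25.9 in replicate 2. Over all 43346 Ensembl genes, 36.0% had at least 1 count in replicate 1 and 41.7% in replicate 2. Among the 894 other genes with "-ps" in their symbol, 65 (7.27%) were detected in replicate 1 and 107 (12.0%) in replicate 2. Of the 93 cytosolic ribosomal protein genes themselves, 87 and 91 were detected. The members with counts in 1 library only were 7 in replicate 1, where the highest had 10.5 counts, and 40 in replicate 2, where the highest had 452 counts. Copies of large subunit genes (40 of 155 detected in either library) and of small subunit genes (27 of 102) were detected at close shares, 25.8% and 26.5%.

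All members together held little of the ribosomal protein signal. They held 402 counts in replicate 1 and 2835 in replicate 2, with summed levels of 42.4 and 471 TPM, against 1466 and 22906 TPM for the 93 ribosomal protein genes. Set against members plus parents, the members' part of the counts was 2.64% in replicate 1 (95% Wilson interval 2.40 to 2.91%) and 1.89% in replicate 2 (1.82 to 1.96%), a mean of 2.27 ± 0.53% (SD, n = 2 technical libraries). The intervals, here and below, cover counting error only and leave out the error of placing shared reads. Reads without molecular identifiers are not independent molecules, so the intervals can be too narrow even for counting error. Those of the members' part do not overlap, which cannot settle whether the libraries differ. In TPM the mean share was 3.44%, more than 1.5 times as large. A few copies made up most of this. The 4 members with most counts held 66.3% of all member counts in replicate 1 and 55.1% in replicate 2, and the leading 10 held 89.3% and 84.5%.

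The member of highest mean level was Rpl31-ps8, a copy of the gene for a protein near the exit of the ribosomal tunnel. It had 9.89 expected counts and 1.58 TPM in replicate 1, and 514 counts and 139 TPM in replicate 2. Its parent Rpl31 stood at 7.53 and 230 TPM, so the copy was below its parent in both libraries but at 60.2% of its TPM in replicate 2. Rpl27-ps3, a copy of the large subunit gene Rpl27, had 0 counts in replicate 1 and 452 counts, or 81.3 TPM, in replicate 2, where its parent had 97.0 TPM. It came closest to its parent in replicate 2, at 83.8% of the parent's TPM, and was among the undetected in replicate 1, where the parent had 22.6 counts. Rps23-ps1 copies the gene for a small subunit protein at the decoding centre. It had 5.28 counts and 0.68 TPM in replicate 1 and 253 counts and 55.1 TPM in replicate 2, beside 22.8 and 185 TPM for Rps23.

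Rpl10a-ps1 is a copy of the gene for the protein of the mobile L1 stalk. Its values were 22.3 counts and 1.47 TPM in replicate 1, and 342 counts and 37.9 TPM in replicate 2, and Rpl10a had 1.95 and 141 TPM. The copy was thus at 75.4% of its parent's TPM in replicate 1 and at 26.8% in replicate 2. Rpl15-ps3, copied from a large subunit gene, had 71.2 counts and 5.13 TPM in replicate 1 and 148 counts and 17.9 TPM in replicate 2, beside 12.8 and 186 TPM for Rpl15. Rps6-ps4 comes from the gene for the small subunit protein that S6 kinases phosphorylate. It had 0 counts in replicate 1 and 228 counts, or 20.97 TPM, in replicate 2, while Rps6 had 25.5 and 309 TPM. These 6 leading members match their parents base for base over the whole M21 transcript of the copy, and none of their 50-base windows is absent from every other gene. The model of Rpl27-ps3 is 475 bases long in the tables and 411 in release M21.

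The next members by mean TPM include Rpl38-ps2 and Rps2-ps10, whose values are given below. Of the others, Rpl19-ps11 and Rps10-ps2 carried coding differences from their parents, and Rpl10-ps3 was identical to Rpl10 over the 96.4% of its length that aligned. Rpl19-ps11, copied from the gene for a protein that bridges the subunits, had 20.5 counts and 1.19 TPM in replicate 1 and 147 counts and 14.3 TPM in replicate 2, against 3.23 and 361 TPM for Rpl19. Its model is 718 bases long in the tables and 591 in release M21, so reads counted on the extra bases are not covered by the sequence shown above, and an exon of Gm27288 overlaps it on the same strand. Rps10-ps2, a copy of the gene for a small subunit protein, had 0 counts in replicate 1 and 70.4 counts, or 11.8 TPM, in replicate 2, beside 1.61 and 284 TPM for Rps10. Rpl10-ps3 copies the gene for a protein that joins the large subunit late. It had 6.19 counts and 0.34 TPM, then 99.8 counts and 9.32 TPM, beside 36.1 and 360.5 TPM for Rpl10. Rps12-ps3 had 0 and 46.6 counts, with 7.88 TPM in replicate 2, beside 5.71 and 385 TPM for Rps12.

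No member was above its parent's TPM in both libraries. This covers copies taken by name only: Gm15500 and Gm11518, given at the end, were above theirs in both. In replicate 1, 2 members were above their parent, and in replicate 2, 0 were. Rpl38-ps2, copied from the gene for a large subunit protein known for its part in translating Hox mRNAs, had 19.4 counts and 13.7 TPM in replicate 1, against 33.6 counts and 6.45 TPM for Rpl38. In replicate 2 it had 3 counts and 3.41 TPM, and Rpl38 had 1153 counts and 325 TPM. Its transcript is 213 bases long, and the effective length behind its TPM was 43.9 bases in replicate 1 and 45.5 in replicate 2, so each read adds much TPM. By counts it was below its parent in both libraries. The other was Rpl36-ps12 at 0.15 TPM from 1.00 count, where Rpl36 had 0 counts in replicate 1 and 382 TPM in replicate 2. With posterior mean TPM, a second estimate in the tables, again 0 members were above their parent in both.

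Counts followed how much a copy still reads like its parent. Of 45 members under 90% identical to the parent's transcript over at least 80% of their length, 1 was detected in either library. The count was 4 of 56 members from 90 to under 95%, 5 of 59 from 95 to under 98%, 15 of 38 from 98 to under 99%, 29 of 41 from 99 to under 100%, and 12 of 13 at 100%. The 13 identical members held 34.6% of all member counts in replicate 1 and 75.4% in replicate 2, and those from 99 to under 100% held 62.6% and 19.3%. Median identity was 99.3% among the 67 detected members and 94.9% among the 190 others, leaving out 3 members with no alignment to their parent. Of these 3, 1 was detected, with 0 counts in replicate 1 and 3.15 in replicate 2. The lowest identity of a detected member with an alignment was 89.3%. For 3 members the closest ribosomal protein gene was not the parent by name. Only Rpl10-ps1 was identical to its parent and had 0 counts in both libraries, with posterior mean counts of 0.90 and 3.30, while Rpl10 had 541 and 3736 counts.

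**Figure D1:**
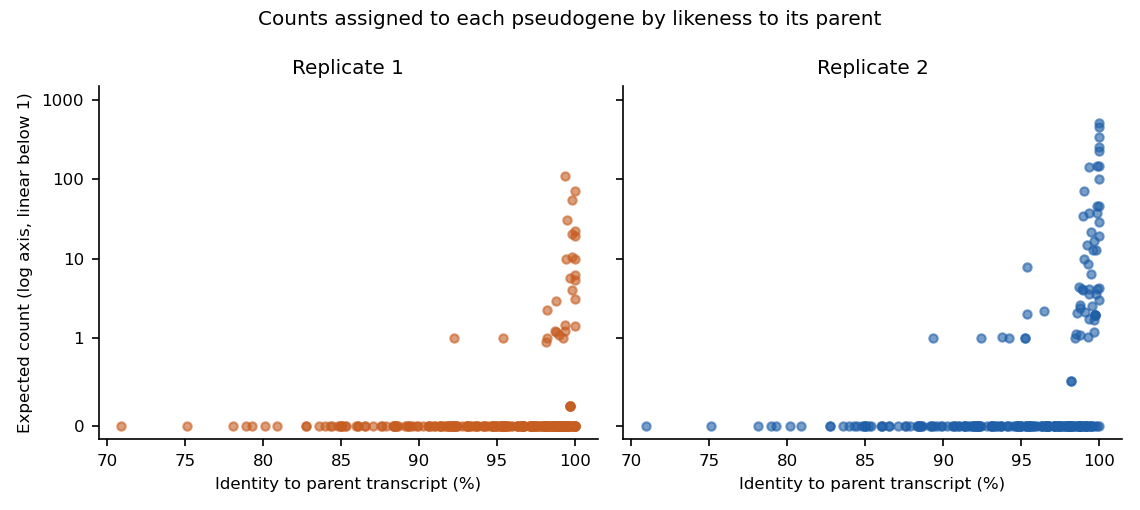
Expected count of each member (vertical axis, logarithmic above 1 and linear below) against the identity of its M21 transcript to the parent's (horizontal axis, percent), for the members aligned over at least 80% of their length, 1 point per member and 1 panel per library. Points leave 0 mainly at the right edge: 56 of the 67 detected members lie at 98% or more.

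Few counts sat on members with mostly unique sequence. A 50-base window was called unique where it occurs in no other M21 transcript on either strand, and the median share of unique windows was 14.2% among detected members and 73.2% among the others. The 33 members with no unique window held 33.2% of member counts in replicate 1 and 72.5% in replicate 2. Members with some unique windows, but under 50%, held most of the counts in replicate 1 but not in replicate 2. The 145 members with at least 50% unique windows held 0.983% and 0.676%, and 11 of them were detected. The best counted of these was Rps19-ps3, whose sequence is shown above: it had 1.00 count in replicate 1 and 7.91 in replicate 2, with posterior SDs of 0 and 0.28. It is 95.4% identical to Rps19, and 62.9% of its windows are unique. Rpl36-ps12, with 48.1% unique windows, had 1.00 and 14.9 counts with posterior SDs of 0 and 0.33. It lies in an intron of Sumf1 on the same strand, and the part of Sumf1 precursor RNA in its counts was not tested. Both were singled out after their values were seen.

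The deposited posterior SD of a count shows how firmly reads were placed. It is 0 where a gene's reads fit nowhere else, so it covers placement and not counting error. Among all other genes with a posterior mean of at least 1 count it was 0 in 90.1% in replicate 1 and 87.2% in replicate 2. Among members it was 0 in 3 of 34 and in 5 of 67. The median SD was 53.5% of the posterior mean in replicate 1 and 22.2% in replicate 2 among members, against 0.742% and 0.160% among ribosomal protein genes. These groups were not at equal count levels. The median posterior mean was 3.77 and 4.18 counts among members, and 92.9 and 2140 among ribosomal protein genes. The part of count level in the gap was not tested. Relative to the square root of the posterior mean, the size of counting error, the members' median was 1.19 and 0.86, and the ribosomal protein genes' was 0.098 and 0.079. The SD exceeded that square root in 19 of 34 members in replicate 1 (55.9%) and 27 of 67 in replicate 2 (40.3%), and in 2.07% and 2.52% of all other genes.

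For several of the leading pairs the SDs of copy and parent were nearly equal in counts. Rpl10a-ps1 had SDs of 10.1 and 51.5 counts, and so had Rpl10a. Those of Rps6-ps4 were 7.14 and 53.7, and those of Rps6 7.15 and 53.7. For Rpl31-ps8 they were 6.00 and 38.8, beside 5.82 and 38.9 for Rpl31. In replicate 2 the SD of Rpl10a was 2.88% of its posterior mean. Rpl15-ps3 had an SD of 38.4 counts in replicate 1 and 52.1 in replicate 2, over 5 times the square root of its mean in both (5.23 and 5.30). The SDs of Rpl15 were lower, at 16.0 and 29.5 counts. Gm4294, a copy of Rpl15 under another name, had 71.2 counts and 5.13 TPM in replicate 1, the same as Rpl15-ps3, and 0 counts in replicate 2. The part of reads shared with Gm4294 in these SDs was not tested. Rpl27-ps3 and its parent also differed, with 4.02 and 62.3 counts beside 7.78 and 39.1 for Rpl27. The lower bound of its TPM interval was under 0.1 TPM in both libraries.

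**Figure D2:**
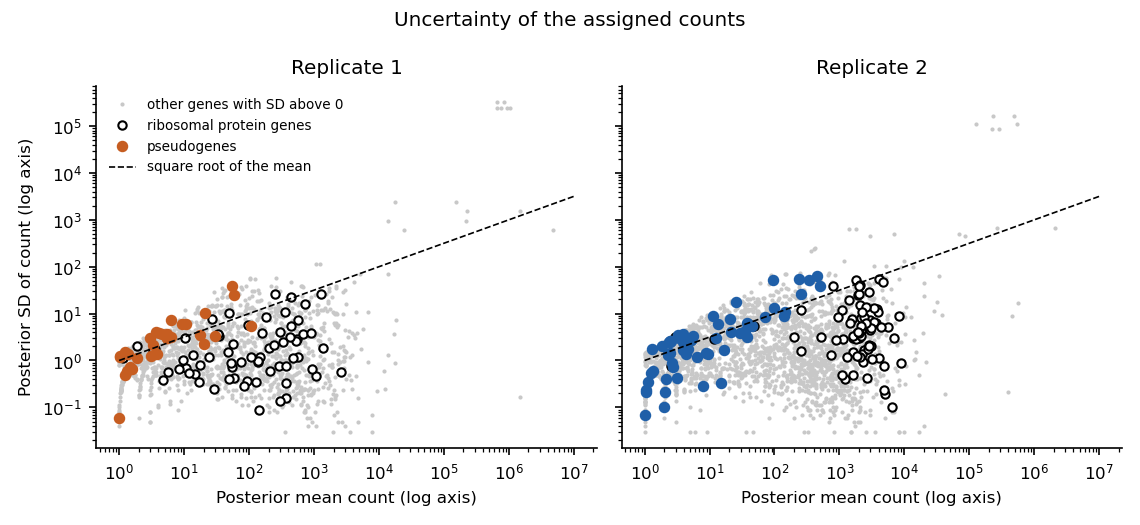
Posterior SD of the count against posterior mean count, both on logarithmic axes, for members (coloured), ribosomal protein genes (open) and other genes with an SD above 0 (grey), 1 panel per library; the dashed line is the square root of the mean. In replicate 1, 19 of 34 members with a posterior mean of at least 1 lie above the line, and 6 of 89 ribosomal protein genes do; members with an SD of 0 are not drawn.

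Expected count and posterior mean did not always name the same copy. In each library 7 members had 0 expected counts but a posterior mean of at least 1 count. The highest such mean was 6.31 counts in replicate 1, for Rps6-ps4, and 25.9 counts with an SD of 17.9 in replicate 2, for Rpl7a-ps11, which has no unique window and is closest to Gm8226. Rpl35a-ps2, Rpl35a-ps3, Rpl35a-ps4 and Rpl35a-ps6 share every expected count, at 0.22 in replicate 1 and 1.93 in replicate 2. Each is 99.7% identical to Rpl35a and has no unique window.

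Between the libraries the members were compared at 20 genes with at least 20 counts over both. By rescaled TPM, 14 were at least 2-fold higher in replicate 2, 4 at least 2-fold lower and 2 neither. Of the 14, 8 had 0 counts in replicate 1 and passed the filter through replicate 2 alone, so by this measure they could only come out higher. Also among the 14, Rpl31-ps8, Rps23-ps1, Rpl10-ps3 and Rpl28-ps1 had fewer than 20 counts in replicate 1 and passed through replicate 2. Over all genes tested, 576 were at 0 in replicate 1 and 9 in replicate 2, so the members' split is not like for like with that of all genes. Over all 13154 genes tested, 35.8% were at least 2-fold higher and 31.9% at least 2-fold lower, so a change of that size was common. The members' median log2 ratio (replicate 2 over replicate 1, pseudocount 0.1) was 3.27, and 2.10 with the 8 members at 0 counts in replicate 1 set to a floor of 3 counts per library, which covers counting error only. With posterior mean TPM the split was again 14 to 4 and the median log2 ratio 2.55. The median of the 88 ribosomal protein genes tested was 2.54, with 65 higher and 3 lower, and that of all genes was -0.01. With TPM as deposited the members split 17 higher to 2 lower, the ribosomal protein genes 88 to 0 and all genes 9917 to 42, around a median log2 ratio of 2.17 over all genes. With TMM-scaled counts the splits were 14 to 4, 69 to 1 and 5143 to 3576, around a median of 0.22.

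For the 8 members at 0 expected counts in replicate 1 the size of the ratio depends on the estimate. By posterior mean TPM, rescaled, Rpl27-ps3 was 37.3-fold higher in replicate 2, Rps10-ps2 16.8-fold, Rps6-ps4 12.5-fold and Rps12-ps3 10.4-fold. Rpl14-ps1 was 11.4-fold higher, Rpsa-ps10 10.7-fold, Rpl3-ps1 9.08-fold and Rpl9-ps6 3.0-fold. Against a floor of 3 counts in replicate 1 the ratios were 46.8 for Rpl27-ps3, 23.6 for Rps6-ps4, 7.30 for Rps10-ps2 and 4.84 for Rps12-ps3, and from 3.52 to 4.77 for the other 4. The floor is no lower bound for Rpl27-ps3, Rps6-ps4 and Rpl9-ps6, whose posterior means in replicate 1 were 3.67, 6.31 and 4.05 counts. Rpsa, the laminin receptor precursor, and Rpl3, by the peptidyl transferase centre, are parents in this group. In replicate 2, Rpsa-ps10 had 37.4 counts, Rpl3-ps1 37.3, Rpl14-ps1 34.0 and Rpl9-ps6 46.0. Their parents were also higher in replicate 2: Rpsa 14.3-fold, Rpl3 5.95-fold, Rps10 32.4-fold, Rps12 12.4-fold, Rpl27 7.15-fold and Rps6 2.23-fold, while Rpl9 and Rpl14 were under 2-fold at 1.78 and 1.80.

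The 4 lower members went against their parents. Rpl38-ps2 was at 0.047 times its replicate 1 level in replicate 2, while Rpl38 was 9.28-fold higher. Rpl23a-ps3 copies the gene for a protein at the tunnel exit, where the signal recognition particle docks. It had 55.2 counts and 5.20 TPM in replicate 1 and 12.7 counts and 2.02 TPM in replicate 2, a ratio of 0.073, while Rpl23a was 2.41-fold higher. Its posterior SD was 24.7 counts in replicate 1. Rpl9-ps7 had 30.5 and 21.5 counts (2.40 and 2.85 TPM), a ratio of 0.22, and Rps2-ps10 had 110 and 142 counts (4.34 and 9.46 TPM), a ratio of 0.40, while Rps2 was 2.33-fold higher. With TPM as deposited only Rpl38-ps2 (0.25) and Rpl23a-ps3 (0.40) of these 4 stayed below 1, and Rpl9-ps7 (1.18) and Rps2-ps10 (2.15) were above it. With TMM-scaled counts all 4 stayed below, from 0.078 to 0.47.

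The share of a pair needs no scaling between libraries. Of the 20 pairs, 11 gave the pseudogene a larger share of the counts of copy plus parent in replicate 2 and 9 in replicate 1. The 8 members at 0 counts in replicate 1 are among the 11, and their share could only come out larger in replicate 2. The rest of the 11 had fewer than 20 counts in replicate 1 and passed the filter through replicate 2. So did Rpl28-ps1 of the 9. The split of the 20 pairs therefore shows no direction. A pair leaves out copies under other names, such as Gm11518, a copy of Rpl27 with 36.4 counts in replicate 1 and 509 in replicate 2. For Rpl27-ps3 the share was 0% in replicate 1 (95% Wilson interval 0 to 14.3%) and 36.0% in replicate 2 (33.4 to 38.7%). Rpl10a-ps1 went the other way, from 32.4% (22.1 to 43.6%) to 16.1% (14.6 to 17.7%), as did Rpl38-ps2, from 36.7% (24.3 to 49.3%) to 0.26% (0.088 to 0.76%). Rpl19-ps11 had 26.7% and 3.60%, and Rps2-ps10 had 19.7% and 1.67%. Rpl31-ps8 had 9.16% (5.11 to 16.2%) and 20.6% (19.0 to 22.2%). These intervals leave out the placement error that the posterior SD measures, and their overlap between libraries was not counted over the 20 pairs.

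**Figure D3:**
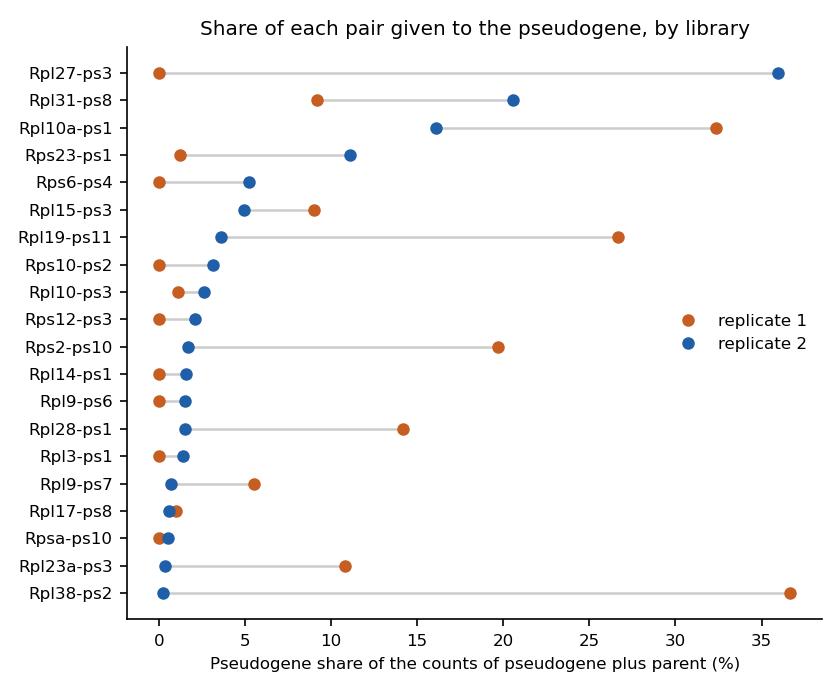
Share of the expected counts of pseudogene plus parent that went to the pseudogene (horizontal axis, percent) for the 20 members with at least 20 counts over both libraries, 1 point per library joined by a line. Rpl38-ps2 spans 36.7% to 0.26% and Rpl27-ps3 0% to 36.0%, in opposite directions.

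By family, 41 of the 58 parent names had counts in at least 1 copy and 17 had none. A family with many copies could still hold few counts. Rps12 has 22 members, which together held 0 counts in replicate 1 and 48.6 in replicate 2, and Rpl21 has 12, with 0 and 3.06 counts. Rpl31 has 21 members with 9.89 and 516 counts, nearly all in Rpl31-ps8. Rpl10a has 2 members, and 1 of them held all 22.3 and 342 counts. Family counts are those of members plus parent and leave out copies under other names, such as Gm11518 for Rpl27. The members' share of family counts was largest in replicate 2 for Rpl27 (36.1%), Rpl31 (20.6%), Rpl10a (16.1%) and Rps23 (11.1%). In replicate 1, among families with at least 10 counts in copies, it was largest for Rpl38 (36.7%), Rpl10a (32.4%), Rpl19 (26.7%) and Rps2 (19.7%).

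The annotation calls 245 members processed pseudogenes, 6 transcribed processed pseudogenes and 6 protein coding, and 251 have a single exon. Of the 6 protein-coding members, Rpl10-ps3 and Rps12-ps3 are given above. Rpl9-ps6 had 0 and 46.0 counts, with 4.74 TPM in replicate 2, and Rpl36a-ps1 had 2.26 and 0 counts. Rpl9-ps1 and Rpl36-ps4, which are 94.8% and 82.7% identical to their parents, were at 0 counts in both libraries. An open reading frame of the parent's length remains in 113 members. These held 92.8% of member counts in replicate 1 and 88.5% in replicate 2, and 46 of them were detected. Rps23-ps1 is an exception among the leading members: its transcript model holds 141 of the 143 codons of Rps23.

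By position, 178 members overlap no other annotated gene, and 42 of them (23.6%) were detected. Of 21 members in an intron of a gene on the same strand, 10 (47.6%) were detected, with 7.92 counts in replicate 1 and 50.1 in replicate 2 in all. Of 51 in an intron of a gene on the opposite strand, 13 (25.5%) were detected. No source used here says whether counting was stranded, so sense and antisense reads at these places cannot be told apart. Rps23-ps1 overlaps an exon of Gm5148 on the opposite strand, and Rpl17-ps8, with 5.71 and 16.8 counts, lies in an intron of Heph on its own strand. The part of the host genes' RNA in these counts was not tested.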

How the data were processed

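The 2 technical libraries of poly(A) RNA from 1 mouse heart were analysed from the deposited gene tables. The authors' expected counts per gene, TPM, posterior mean counts and posterior SDs come from alignments to mm10 with annotation M4, per the deposited file listing; no source used here names the aligner or quantifier. Expected counts and TPM were used as deposited. Identifiers were matched without version to GENCODE M21, also the source of coordinates (1-based) and transcripts; 37 members differ in length between M4 and M21. Transcripts were aligned with blastn 2.17.0 and Biopython 1.88.

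Ratios between libraries used TPM rescaled without mitochondrial genes and nuclear copies (at least 95% identity over 90% of length), a pseudocount of 0.1 and genes with at least 20 counts over both libraries; 2-fold counted as apart, and no test was run. TMM scaling used edgeR 4.0.16 on expected counts. Shares have 95% Wilson intervals (statsmodels 0.14.6). Members and lists were chosen with earlier results of these data known. Named are the 12 members of highest mean TPM, those above their parent with at least 10 counts, the 4 largest and 4 smallest ratios, those with at least 20 counts in 1 library and none in the other, and protein-coding members; others were singled out after their values were seen. The calling step was tested on simulated data. Alternatives covered threshold, abundance estimate, unit, scaling, pseudocount, filter and leaving out a library.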

Additional observations from a re-analysis of the deposited data

How the results depend on the processing

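The 20 members with at least 1 count in both libraries became 6 at a threshold of at least 10 counts, and 27 or 60 when only replicate 1 or only replicate 2 was used, an alternative added after seeing the data; posterior means gave 28. The mean share of family counts held by members, 2.27%, became 3.44% in TPM and stayed between 1.89% and 2.64% with 1 library left out and with the other alternatives. No member was above its parent in both libraries; with 1 library left out the count was 0 or 2. The median posterior SD over the square root of the mean, 1.02 over both libraries, is 0.38 when divided by the mean, which is another measure, and lay between 0.86 and 1.21 otherwise. The 18 members at least 2-fold apart became 67 with no filter on counts, since 237 members under 20 counts then enter, and stayed at 18 or 19 under the scalings, pseudocount and posterior mean tried. No paired analysis was possible because there is 1 group and both libraries come from the same animal. An expected count of 0 allows up to 3 counts by counting error alone, and read placement adds to this, so levels near it are not resolved at this depth.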

Other observations

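Copies of ribosomal protein genes also carry other names in the annotation. Of 950 further pseudogenes at least 80% identical to a ribosomal protein gene over at least 80% of their length, 37 had at least 1 count in replicate 1 and 87 in replicate 2, with 1889 and 5125 counts in all. The best counted was Gm15500, a copy of Rpl5, with 1510 and 2982 counts. Without it the other 949 held 379 and 2143 counts, below the 402 and 2835 of the named members, and with it they held more. Gm11518, a copy of Rpl27, had 36.4 and 509 counts. Both had more TPM than the gene they copy in both libraries. Gm15500 had 65.8 and 195 TPM, beside 29.3 and 100 TPM for Rpl5. Gm11518 had 4.99 and 118 TPM, beside 2.50 and 97.0 TPM for Rpl27. The other copies of this kind were not set beside their parents in this way. Gm15500 and Gm11518 were chosen after their values were seen.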
